A study of Mus musculus with 12 samples.

Results

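The 10 genes described here encode non-collagen proteins of the dermal matrix. They are elastin (Eln), fibrillin-1 (Fbn1) and fibulin-5 (Fbln5) of the elastic fiber, the small leucine-rich proteoglycans decorin (Dcn), lumican (Lum), biglycan (Bgn) and fibromodulin (Fmod), and the matricellular proteins periostin (Postn), tenascin-C (Tnc) and SPARC (Sparc). They were taken by symbol from a table of 18505 genes, in which all 10 were found, and all 10 were among the 15288 genes that passed the filter on low values and were tested.

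Expression was measured by RNA-seq in 12 samples of back skin taken on day 10, with 4 samples in each of 3 groups. All samples came from wild-type (WT) male BALB/c mice a few weeks old whose back hair had been shaved. Control mice were coated with petroleum jelly (the sample labels call this white space handling), IMQ + NS mice received daily imiquimod (IMQ) cream, an agonist of a Toll-like receptor that provokes psoriasis-like inflammation, and were then covered with a sodium chloride solution (NS) under gauze and film, and IMQ + BZLF mice received the same cream followed by the Banzhilian formula (BZLF), a mixture of Chinese medicinal materials, under the same cover. The BZLF dose of the sequenced samples is not given in the sources used here, and the cream and the cover cannot be told apart in a comparison with the control group, which had neither.

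Elastic fibers give skin its recoil. Elastin is laid down and cross-linked on a scaffold of fibrillin microfibrils, and fibulin-5 helps to bring the parts together. Small leucine-rich proteoglycans sit on collagen fibrils and set their width and spacing, and they also bind growth factors such as TGF-beta. Matricellular proteins are secreted into the matrix but act mainly on how cells attach and move, and several of them are known to appear in wounds and inflamed skin.

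Regulatory sequence is shown for 4 members that changed in at least 1 comparison, because their start sites are in the RefSeq promoter table for GRCm38.p6. The table held 10 windows of 300 bases for 7 of the 10 members, each running from 250 bases before the start of transcription to 50 after it. Capitals mark matches, on either strand, to TATAAA, to the GC box GGGCGG, to the CCAAT box, to the AP-1 motif TGANTCA, to the E-box CACGTG, and to the CArG box and the NF-kappa B motif. The Sparc window lies on the minus strand at chr11:55420031-55420330, around a start 3103 bases inside the GENCODE gene, the Tnc window on the minus strand at chr4:64046966-64047265, the Postn window on the plus strand at chr3:54360857-54361156 and the Fmod window on the plus strand at chr1:134037004-134037303.
Sparc: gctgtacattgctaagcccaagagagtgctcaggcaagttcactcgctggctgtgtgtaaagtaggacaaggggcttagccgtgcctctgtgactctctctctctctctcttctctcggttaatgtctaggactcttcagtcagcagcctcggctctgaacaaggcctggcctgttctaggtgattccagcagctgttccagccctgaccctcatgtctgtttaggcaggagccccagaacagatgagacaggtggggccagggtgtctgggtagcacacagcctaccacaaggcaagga
Tnc: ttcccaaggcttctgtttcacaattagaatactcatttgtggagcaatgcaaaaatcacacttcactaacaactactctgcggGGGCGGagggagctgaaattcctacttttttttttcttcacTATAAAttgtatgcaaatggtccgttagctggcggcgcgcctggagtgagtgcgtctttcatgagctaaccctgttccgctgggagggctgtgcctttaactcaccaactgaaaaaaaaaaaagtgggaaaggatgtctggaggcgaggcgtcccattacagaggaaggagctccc
Postn: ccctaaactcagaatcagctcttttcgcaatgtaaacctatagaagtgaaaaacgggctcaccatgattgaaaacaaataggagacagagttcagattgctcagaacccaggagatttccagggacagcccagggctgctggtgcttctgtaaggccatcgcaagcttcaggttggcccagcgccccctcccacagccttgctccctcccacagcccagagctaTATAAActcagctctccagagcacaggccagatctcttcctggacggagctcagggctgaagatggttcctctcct
Fmod: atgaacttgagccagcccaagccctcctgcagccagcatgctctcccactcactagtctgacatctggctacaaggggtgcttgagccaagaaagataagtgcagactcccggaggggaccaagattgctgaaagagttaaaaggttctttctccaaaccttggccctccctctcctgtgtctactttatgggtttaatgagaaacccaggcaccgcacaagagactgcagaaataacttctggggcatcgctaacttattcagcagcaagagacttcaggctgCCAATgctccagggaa

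The Tnc and Postn windows each held TATAAA, which 13.6% of all 32851 promoter windows held. GGGCGG was found in the Tnc window and in windows of Bgn, Fbln5 and Fbn1, against 35.7% of all windows. The Fmod window held CCAAT (37.4% of all windows), as did windows of Fbln5 and Postn. None of the 10 member windows held TGANTCA (7.81% of all windows), CACGTG (7.15%), a CArG box (1.63%) or an NF-kappa B match (4.51%). Not all of these windows lay at a GENCODE gene start. The Fbn1 window, an Fbln5 window and a Postn window had starts at 1555, 571 and -1842 bases from it, and the Tnc windows overlapped each other. The Sparc window matched only GTCTG, a short element bound by SMAD proteins that is left in lower case because 49.6% of all windows held it, and 7 of the 10 member windows did. These are matches of letters and not sites shown to be bound.

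Values are FPKM, fragments scaled to transcript length and to sequencing depth, so levels can be set side by side between genes. The FPKM of a sample summed to between 444660 and 506622, with between 16649 and 16941 genes above 0, and read counts, and with them the depth behind each value, were not available for use here. Basal keratinocyte markers (Krt5, Krt14 and 4 others) summed to at least 1023 FPKM in every sample, which fits the labelled tissue. Control replicate 2 stood apart, with a correlation of 0.949 to 0.961 with the other controls against 0.985 to 0.990 among those. Its hair shaft keratins summed to 283 FPKM against 9.68 to 27.0 in the other controls, and its skeletal muscle genes to 4125 against 9330 to 10272. It and IMQ + BZLF replicate 2 also held seminal vesicle transcripts, at 40.8 and 39.9 summed FPKM, where every other sample had at most 0.0441. Pancreas transcripts were more widespread. They summed to 17.3 to 215 FPKM in control, 0.262 to 234 in IMQ + NS and 17.3 to 206 in IMQ + BZLF samples.

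In IMQ + NS against control skin, 6 of the 10 matrix genes changed. Sparc, Dcn, Lum and Fmod were lower and Tnc and Postn were higher at a Benjamini-Hochberg adjusted p below 0.05, from limma fitted on log2(FPKM + 0.1). The 3 elastic fiber genes and Bgn did not pass. Of all 15288 genes, 29.0% were higher and 27.1% were lower by the same rule, so calls were common in this comparison. With a log2 change over 1 in size also required, 1 member was higher (Tnc) and 3 were lower (Sparc, Dcn, Lum), against 11.4% and 11.0% of all genes. The same 6 members had groups that did not overlap, with all 4 samples higher for 2 of them (23.7% of all genes) and all 4 lower for 4 (25.7%).

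In IMQ + BZLF against IMQ + NS skin, 1 of the 10 members changed. Tnc was lower, and no member was higher, against 5.17% and 1.28% of all genes by the same rule, or 2.20% and 0.321% with the limit on the size of the change. The background counts here depended on single libraries, with 195 genes higher and 791 lower in all, but 59 higher without IMQ + BZLF replicate 2, 337 higher without IMQ + BZLF replicate 1, and 426 lower without IMQ + NS replicate 3. Quantile normalization gave 311 higher. Sparc had the next smallest adjusted p in the limma fit, 0.0593. Tnc was also the only member whose 2 groups did not overlap, against 10.9% of all genes that lay wholly lower and 4.24% wholly higher.

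In IMQ + BZLF against control skin, the 6 members that differed were again Sparc, Dcn, Lum and Fmod, which were lower, and Tnc and Postn, which were higher. The background was 29.2% of all genes lower and 23.8% higher, or 10.1% and 9.65% with the limit on size, which 3 lower members and 1 higher member passed. Postn overlapped between these groups while the other 5 did not, against 28.1% of all genes wholly lower and 19.4% wholly higher. The 3 comparisons share groups, so their results are not independent of each other. Neither the labels nor the methods say that each sample of a group is a separate mouse, so the p-values measure only the spread between these samples, which may be technical.

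**Figure D1:**
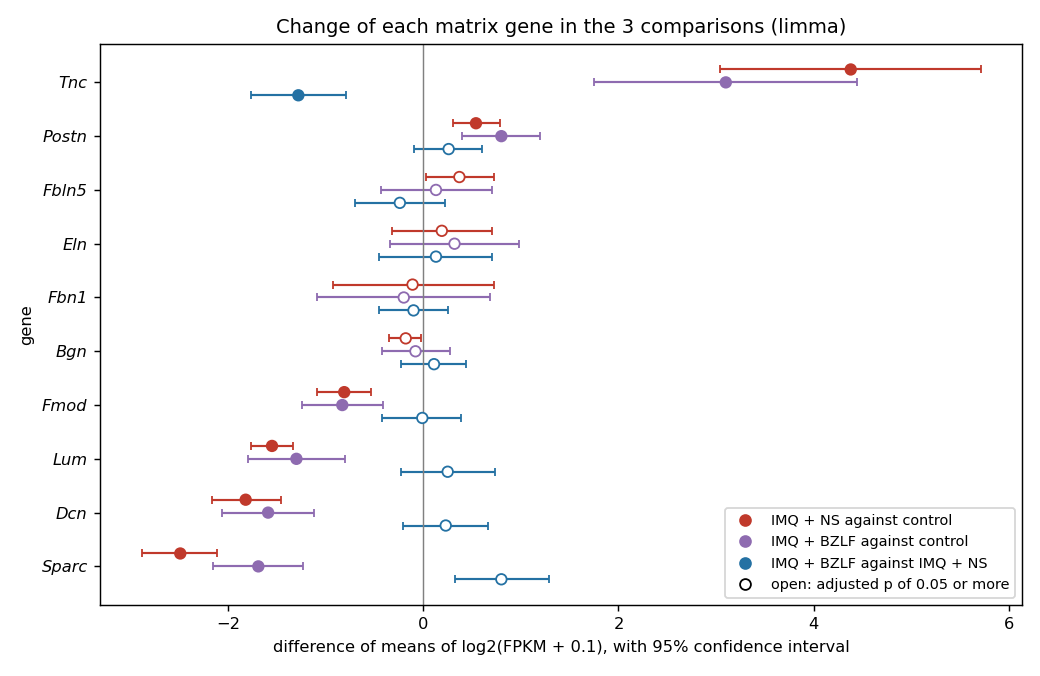
Difference of the group means of log2(FPKM + 0.1) for each gene (horizontal axis, log2 scale) in the 3 comparisons, with 95% confidence intervals from limma; filled points have an adjusted p below 0.05 and open points do not. Tnc and Postn lie to the right and Sparc, Dcn, Lum and Fmod to the left of 0 against control, a direction that turns for Fmod (0.33 and 0.15) when values are centred on fibroblast marker genes, and Tnc is the filled point between the IMQ groups.

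**Figure D2:**
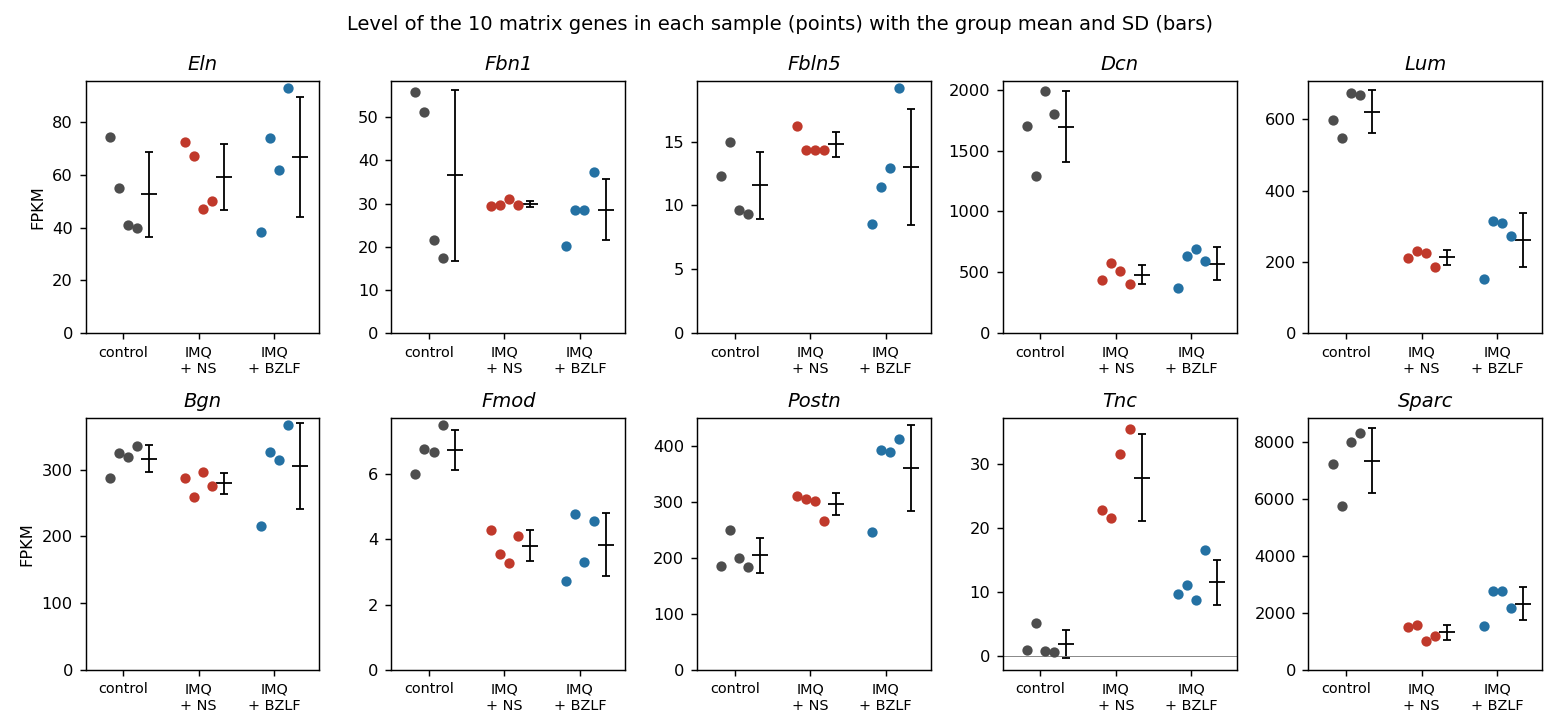
FPKM of each of the 10 genes in every sample (points, vertical axes from 0 with a different range for each gene), with the group mean and SD over 4 samples beside the points. Sparc, Dcn, Lum and Fmod have all control samples above all IMQ samples, and most IMQ + BZLF samples of Sparc lie above its IMQ + NS samples. The 3 groups overlap for Eln, Fbn1, Fbln5 and Bgn.

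Eln (ENSMUSG00000029675, chr5:134702593-134747323 in GRCm38, minus strand) encodes elastin, the elastic core of the fiber. Its FPKM was 74.5, 55.2, 40.9 and 39.8 in control replicates 1 to 4, 72.3, 67.2, 46.9 and 50.2 in IMQ + NS, and 38.3, 73.9, 61.8 and 92.8 in IMQ + BZLF. The 3 groups overlapped, and both the lowest and the highest of the 12 values were IMQ + BZLF samples. The means were 52.6 ± 16.2, 59.1 ± 12.5 and 66.7 ± 22.9 FPKM (SD, n = 4 each). The log2 difference of IMQ + NS from control was 0.19 (95% confidence interval -0.32 to 0.70, adjusted p = 0.484), and that of IMQ + BZLF from IMQ + NS was 0.13 (interval -0.45 to 0.70, adjusted p = 0.811).

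Fbn1 (ENSMUSG00000027204, chr2:125300594-125507993, minus strand) encodes the main protein of the microfibril scaffold. It had the widest relative spread of the 3 elastic fiber genes among the controls, at 55.9, 51.3, 21.5 and 17.4 FPKM (36.5 ± 19.9). The IMQ + NS samples lay inside that range at 29.5, 29.6, 31.0 and 29.6 FPKM, and the IMQ + BZLF samples at 20.1, 28.5, 28.5 and 37.3. The controls fell into a high pair, replicates 1 and 2, and a low pair on either side of the IMQ + NS samples, and the same replicates were the 2 highest controls for Eln. The log2 difference of IMQ + NS from control was -0.11 (interval -0.93 to 0.72, adjusted p = 0.819), and its sign turned to 0.16 without control replicate 1 and 0.12 without control replicate 2.

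Fbln5 (ENSMUSG00000021186, chr12:101746565-101819055, minus strand) encodes a calcium-binding glycoprotein that tethers elastin to microfibrils and to cell surface integrins. Its FPKM was 12.3, 15.0, 9.63 and 9.33 in control samples and 16.2, 14.3, 14.3 and 14.3 in IMQ + NS samples. The groups overlapped because control replicate 2 lay above 3 of the IMQ + NS samples. The log2 difference was 0.37 ± 0.15 (SE) with an adjusted p of 0.0622, and it passed without control replicate 2, at 0.51 with an adjusted p of 0.00313, and under median ratio scaling, at 0.33 with an adjusted p of 0.0347. IMQ + BZLF samples ranged from 8.50 to 19.2 FPKM and overlapped both other groups, with a log2 difference of -0.24 from IMQ + NS (interval -0.70 to 0.22, adjusted p = 0.532).

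A list of other elastic fiber assembly genes held 26 that were tested, which are genes for fibulins, microfibril-associated proteins, latent TGF-beta binding proteins, lysyl oxidases and their partners. In IMQ + NS against control, 16 of the 26 fell and 1 rose (Ltbp3, 0.35 on the log2 scale, adjusted p = 0.0144), with a median log2 change of -0.56 against 0.05 over all genes tested, of which 27.1% were lower and 29.0% higher. The other 9 were not called, among them Fbln2 (51.2 and 50.0 mean FPKM) and Mfap3 (6.01 and 7.11). The direction of that count turned when values were centred on fibroblast markers, to 16 higher and 2 lower, while the list median stood at -0.62 from the median of all genes, as it did with equal sums.

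Among the 5 largest of these falls in genes with at least 1 FPKM on average, Vtn, which encodes the adhesive protein vitronectin, went from 5.72 to 1.40 mean FPKM, a log2 change of -1.93 (adjusted p = 1.6e-04). Mfap2, for a microfibril-associated glycoprotein, went from 100 to 39.0 mean FPKM (log2 change -1.37, adjusted p = 8.6e-05). The other 3 were Adamtsl4 (-1.52) and Ltbp1 (-1.48), for microfibril-binding proteins, and Fbln1 (-1.26), for a fibulin. Lox, which encodes an enzyme that cross-links elastin and collagen, also fell, by 0.54 on the log2 scale (adjusted p = 0.00754). Between the IMQ groups, 5.17% of all genes fell and 1.28% rose with BZLF. Of the 26, 0 fell and 1 rose, Adamtsl2, a binding partner of microfibrils (log2 change 0.97, adjusted p = 0.0244). The mean FPKM of Adamtsl2 was 1.02 in controls, 0.228 with IMQ + NS and 0.530 with IMQ + BZLF, and it had fallen in IMQ + NS against control (log2 change -1.77, adjusted p = 4.7e-04). Ltbp3, Lox, Fbln2, Mfap3 and Adamtsl2 were named after their values had been seen.

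Dcn (ENSMUSG00000019929, chr10:97479609-97518143, plus strand) encodes decorin, which coats collagen fibrils and binds TGF-beta. It was at 1698, 1294, 1990 and 1804 FPKM in control samples, 437, 572, 510 and 403 in IMQ + NS samples and 373, 630, 689 and 592 in IMQ + BZLF samples. Every control sample was higher than every sample of both IMQ groups, and the IMQ groups overlapped. Dcn fell 3.52-fold in IMQ + NS against control skin, a log2 change of -1.82 ± 0.15 (SE) with an adjusted p of 3.5e-05. It was 3.01-fold lower in IMQ + BZLF than in control skin (adjusted p = 4.4e-04), and its log2 difference from IMQ + NS was 0.23 (interval -0.21 to 0.66, adjusted p = 0.532).

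Lum (ENSMUSG00000036446, chr10:97565128-97572703, plus strand) encodes lumican, a keratan sulfate proteoglycan that regulates fibril assembly. Control samples were at 598, 549, 673 and 668 FPKM, IMQ + NS samples at 210, 230, 226 and 185, and IMQ + BZLF samples at 152, 315, 308 and 273. Its groups separated as those of Dcn did, and IMQ + BZLF replicate 1 was the lowest of all 12 samples. Lum fell 2.92-fold in IMQ + NS against control skin (log2 change -1.55 ± 0.10, adjusted p = 7.0e-06) and was 2.46-fold lower in IMQ + BZLF than in control skin (adjusted p = 0.00151). The log2 difference of IMQ + BZLF from IMQ + NS was 0.25 (interval -0.23 to 0.73, adjusted p = 0.534), and it passed at 0.49 (adjusted p = 0.0196) without IMQ + BZLF replicate 1.

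Fmod (ENSMUSG00000041559, chr1:134037254-134048277, plus strand) encodes fibromodulin, which competes with lumican for collagen. It had the lowest level of the 4 proteoglycans, at 6.01, 6.78, 6.67 and 7.49 FPKM in control samples, 4.28, 3.55, 3.26 and 4.10 in IMQ + NS samples and 2.73, 4.77, 3.31 and 4.55 in IMQ + BZLF samples. All control samples lay above all IMQ samples. Fmod fell 1.76-fold in IMQ + NS against control skin (log2 change -0.81 ± 0.12, adjusted p = 5.7e-04), and centring on fibroblast markers turned this to 0.33 (adjusted p = 0.0803). The IMQ groups had nearly the same mean, 3.80 ± 0.478 and 3.84 ± 0.979 FPKM, with a log2 difference of -0.01 (interval -0.42 to 0.39, adjusted p = 0.978).

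Bgn (ENSMUSG00000031375, chrX:73483602-73495933, plus strand) encodes biglycan, the closest relative of decorin, which also binds collagen and TGF-beta. Its FPKM was 288, 325, 319 and 335 in control samples, 288, 259, 296 and 276 in IMQ + NS samples and 215, 326, 315 and 367 in IMQ + BZLF samples. Control replicate 1 lay within the IMQ + NS range while the other 3 controls lay above it. The log2 difference of IMQ + NS from control was -0.18 ± 0.07 with an adjusted p of 0.0606. It passed without control replicate 1 (-0.23, adjusted p = 0.0347), with equal sums (-0.31, adjusted p = 0.00761) and under quantile normalization (-0.42, adjusted p = 0.00577), and it turned to 0.96 (adjusted p = 3.9e-05) when values were centred on fibroblast markers.

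Dcn was also set against Bgn within each sample. The ratio of their FPKM averaged 5.37 ± 0.994 in controls, 1.73 ± 0.341 with IMQ + NS and 1.87 ± 0.250 with IMQ + BZLF (SD, n = 4 each). A two-sided exact permutation test of the log2 ratio between IMQ + NS and control gave p = 0.0286, the smallest p that 4 against 4 samples allow. Adjusted over the 15 tests of 5 pairs of members, which were chosen with values known, this p became 0.0714 and did not pass. Lum over Fmod averaged 92.6, 57.1 and 68.7 in the same order of groups, with the same p and adjusted p for IMQ + NS against control.

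The small leucine-rich proteoglycan genes lie in clusters. Of 8 tested neighbors within these, 6 fell in IMQ + NS against control skin, where 27.1% of all genes fell. Lum, Kera and Epyc follow Dcn on chromosome 10, all on the plus strand. Kera, for the corneal proteoglycan keratocan, was at 0.556 to 2.16 FPKM over the control and IMQ + NS samples and did not pass (log2 difference -0.15, adjusted p = 0.763), and Epyc fell (log2 change -1.37, adjusted p = 0.0120) from a level of at most 0.409 FPKM. On chromosome 1, Prelp and Optc lie near Fmod. Optc, for opticin, averaged 0.297 FPKM in control and 0.161 in IMQ + NS skin and did not pass (log2 difference -0.60, adjusted p = 0.147). Prelp fell from 57.4 mean FPKM in control skin, with a log2 change of -1.27, and overlapped with neither IMQ group.

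On chromosome 13, Ecm2, Aspn, Omd and Ogn lie next to each other and all 4 fell in IMQ + NS against control skin. Ogn, for osteoglycin, fell from 119 to 32.5 mean FPKM (log2 change -1.85, adjusted p = 7.6e-05), and Aspn, for asporin, from 162 to 46.5 (log2 change -1.85, adjusted p = 3.3e-04). Ecm2 changed by -1.93 and Omd, for osteomodulin, by -1.21 on the log2 scale. Ogn rose in IMQ + BZLF against IMQ + NS skin, from 32.5 to 54.8 mean FPKM (log2 change 0.73, adjusted p = 0.0448), and stayed lower than in control skin. Kera, Epyc, Prelp, Optc and Omd were named for their position after values had been seen.

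**Figure D3:**
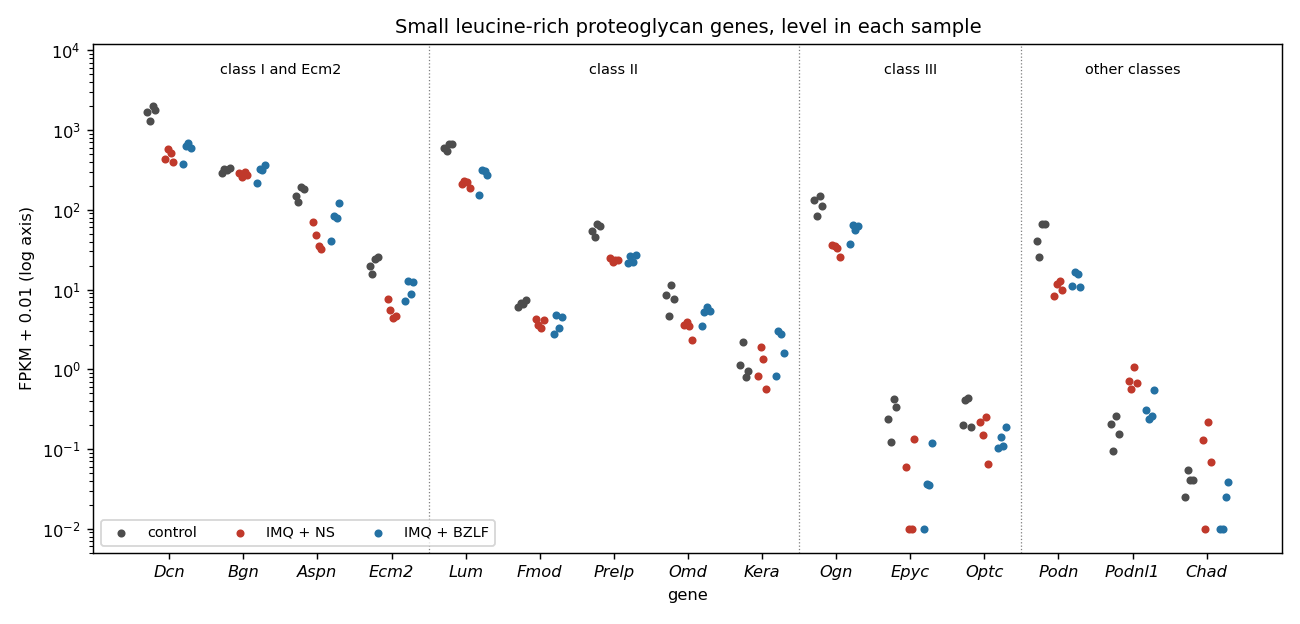
FPKM + 0.01 (vertical log axis) of 15 small leucine-rich proteoglycan genes in each of the 12 samples, grouped by class and colored by group. The control points of Dcn, Lum, Aspn, Ecm2, Prelp and Ogn stand above those of both IMQ groups, those of Bgn overlap with them, and the control points of Podnl1 (0.0852 to 0.252 FPKM) lie below all IMQ + NS points.

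Of 28 tested genes of other proteoglycans and their linkers, 11 fell and 5 rose in IMQ + NS against control. The list includes the cluster neighbors above other than Optc, so the 6 neighbors that fell are among these 11. Over all genes 27.1% fell and 29.0% rose, and the list had a median log2 change of -0.18. The lower genes included Podn (50.0 to 10.6 mean FPKM, log2 change -2.14), for podocan. The higher ones were Prg4, Podnl1, Agrn, Gpc1 and Sdc1, the last being the main syndecan of keratinocytes, and Prg4, for lubricin, had the largest rise (0.265 to 2.88 mean FPKM, log2 change 2.95, adjusted p = 0.00116). Centred on fibroblast markers, the list had 17 higher and 4 lower genes, with a median at -0.23 from that of all genes. With BZLF, relative to IMQ + NS, 1 rose (Ogn) and 1 fell, Srgn, the proteoglycan of leukocyte granules (log2 change -0.87, adjusted p = 0.0311). Over all genes 1.28% rose and 5.17% fell there.

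Sparc (ENSMUSG00000018593, chr11:55394500-55423183, minus strand) encodes a collagen-binding glycoprotein that is needed for collagen fibrils to mature. It was the gene with the highest FPKM of all 18505 in each of the 4 control samples, at 7230, 5768, 8014 and 8328 FPKM. In IMQ + NS samples it was at 1496, 1563, 994 and 1195 FPKM, ranking between 37 and 87, and in IMQ + BZLF samples at 1551, 2749, 2774 and 2173 FPKM, ranking between 9 and 42. No IMQ sample reached the lowest control. Sparc fell 5.63-fold in IMQ + NS against control skin, a log2 change of -2.49 ± 0.17 with an adjusted p of 1.0e-05, and was 3.23-fold lower in IMQ + BZLF than in control skin (adjusted p = 3.1e-04).

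Between the IMQ groups, 3 of the 4 IMQ + BZLF samples had a higher Sparc level than all IMQ + NS samples, and replicate 1 lay within the IMQ + NS range. The log2 difference was 0.80 ± 0.21 (interval 0.32 to 1.29) with an adjusted p of 0.0593, and a two-sided exact permutation test gave p = 0.0571. The adjusted p ranged from 0.0176 to 0.162 over the alternatives, and was 0.0176 without IMQ + BZLF replicate 1 (0.98), 0.0461 with all 12 samples in one fit and 0.0463 under median ratio scaling.

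Sparc was the largest part of the sum of the 10 members in every sample. The members made up 1.87% to 2.51% of all FPKM in control samples, 0.485% to 0.616% in IMQ + NS samples and 0.531% to 0.932% in IMQ + BZLF samples. Sparc alone was 69.3% to 73.1% of the members' sum in control samples, 40.5% to 51.8% in IMQ + NS samples and 54.5% to 60.5% in IMQ + BZLF samples.

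Postn (ENSMUSG00000027750, chr3:54361109-54391037, plus strand) encodes periostin, a TGF-beta-induced protein that promotes collagen cross-linking. It rose in IMQ + NS against control skin, the reverse of Sparc, Dcn, Lum and Fmod. Its FPKM was 185, 251, 200 and 184 in control samples, 312, 306, 303 and 267 in IMQ + NS samples and 247, 394, 390 and 414 in IMQ + BZLF samples. All IMQ + NS samples were above all controls, and of the IMQ + BZLF samples only replicate 1 was not. The rise was 1.46-fold (log2 change 0.54 ± 0.11, adjusted p = 0.00296) in IMQ + NS and 1.74-fold (0.80 ± 0.18, adjusted p = 0.00539) in IMQ + BZLF against control skin. The IMQ groups differed by 0.26 on the log2 scale (interval -0.09 to 0.60, adjusted p = 0.363), which passed at 0.43 (adjusted p = 0.0128) without IMQ + BZLF replicate 1.

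Tnc (ENSMUSG00000028364, chr4:63959785-64047015, minus strand) encodes tenascin-C, which is scarce in resting skin and known to appear under healing and psoriatic epidermis. It was the member with the largest change, at 0.913, 5.15, 0.754 and 0.558 FPKM in control samples, 22.8, 21.5, 31.6 and 35.4 in IMQ + NS samples and 9.70, 11.0, 8.74 and 16.5 in IMQ + BZLF samples. The 3 groups did not overlap, with IMQ + BZLF between the others. Tnc rose 20.8-fold in IMQ + NS against control skin, a log2 change of 4.38 ± 0.59 with an adjusted p of 3.6e-04. Without control replicate 2, the highest control, the log2 change was 5.04 (adjusted p = 8.0e-07).

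Tnc fell 2.43-fold in IMQ + BZLF against IMQ + NS skin (log2 change -1.28 ± 0.22, adjusted p = 0.0119). A two-sided exact permutation test gave p = 0.0286, the smallest possible. IMQ + BZLF samples still had 8.55-fold more Tnc than controls (log2 change 3.10, adjusted p = 0.00269), and without control replicate 2 the log2 change was 3.76 (adjusted p = 4.6e-06). The difference between the IMQ groups did not pass when all 12 samples entered 1 fit (adjusted p = 0.247). Tnc over Postn averaged 0.00807 in controls, 0.0949 with IMQ + NS and 0.0323 with IMQ + BZLF, and none of the 15 ratio tests passed after adjustment.

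Of 24 other tested matricellular genes, 11 fell and 5 rose in IMQ + NS against control. Over all genes 27.1% fell and 29.0% rose, and the list had a median log2 change of -0.44. The largest falls were those of Ccn1 (143 to 19.7 mean FPKM, log2 change -2.59), for an integrin ligand, Tgfbi (389 to 77.0, -2.27), Smoc2 (147 to 32.4, -2.12), a relative of Sparc, and Dpt (646 to 153, -2.05), whose product dermatopontin binds decorin. The genes that rose were Matn4, Thbs1, Thbs4, Spp1 and Ccn4, and Matn4, for a matrilin, went from 2.91 to 10.7 mean FPKM (log2 change 1.94, adjusted p = 8.0e-04). Centred on fibroblast markers, 14 of the list were higher and 4 lower, with a median at -0.49 from that of all genes. Relative to IMQ + NS, the IMQ + BZLF group had changes in 3 of the list, as Dpt (153 to 261 mean FPKM, log2 change 0.75, adjusted p = 0.0296) and Thbs3 (0.68, adjusted p = 0.0172) rose and Thbs1 fell (-0.53, adjusted p = 0.0355). Over all genes 1.28% rose and 5.17% fell there.

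**Figure D4:**
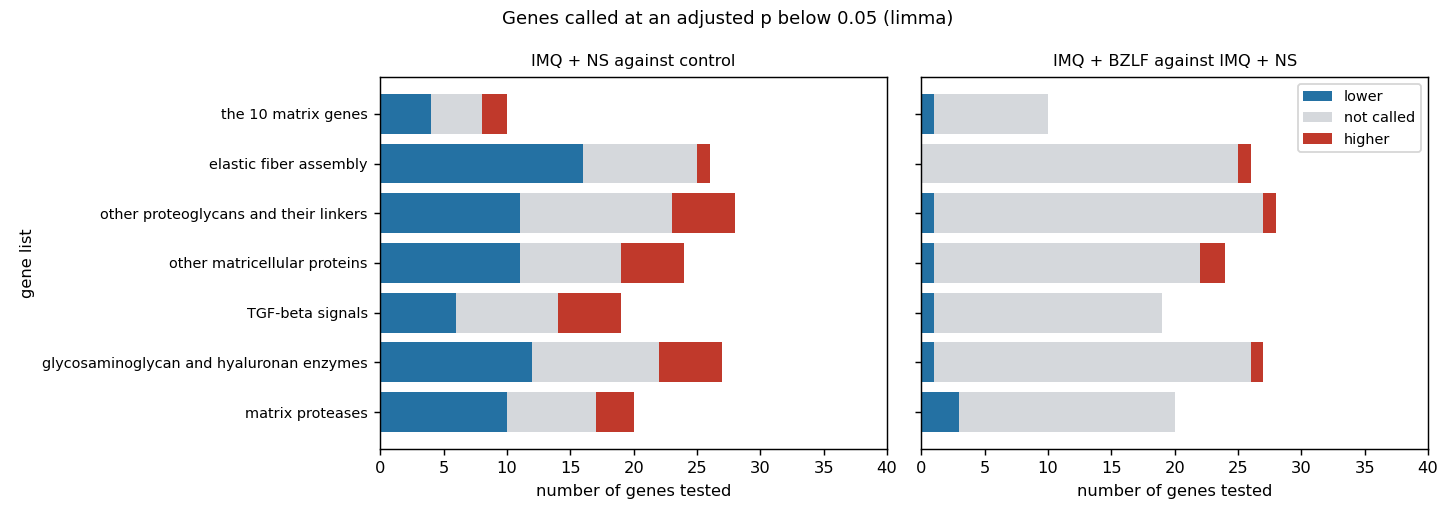
Number of genes tested (horizontal axis) in the 10 members and the 6 related gene lists, split into lower, not called and higher at an adjusted p below 0.05, for IMQ + NS against control (left) and IMQ + BZLF against IMQ + NS (right). The elastic fiber assembly list has 16 lower genes on the left, a direction that turns when values are centred on fibroblast markers (16 higher), and on the right the matrix proteases have 3 lower genes.

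TGF-beta drives the transcription of many matrix genes, and latent TGF-beta is stored on microfibrils. Of 19 tested genes of TGF-beta signals, 6 fell and 5 rose in IMQ + NS against control, shares near the 27.1% and 29.0% of all genes. Tgfb2, a ligand, fell from 10.8 to 2.52 mean FPKM (log2 change -2.00, adjusted p = 0.00110), while Tgfb1 rose by 0.32 (adjusted p = 0.0382) and was lower with BZLF than with NS (log2 change -0.47, adjusted p = 0.0378). The inhibitors Smad7 and Skil rose (log2 changes 1.49 and 1.29), as did the integrin genes Itgb8 (1.34) and Itgb6, whose products activate latent TGF-beta, and the receptor gene Acvrl1 fell (-1.26). The median of the list was 0.16 against 0.05 for all genes, and centred on fibroblast markers the list had 16 higher genes and 1 lower.

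The enzymes that build and break the sugar chains of proteoglycans and hyaluronan split in both directions. Of 27 tested, 12 fell and 5 rose in IMQ + NS against control, where 27.1% of all genes fell and 29.0% rose. Chpf, which extends chondroitin chains, fell from 56.8 to 12.5 mean FPKM (log2 change -2.14, adjusted p = 2.8e-05), and Ust, a sulfotransferase, fell as well (-1.41). The largest rise in the list was that of Cemip, for a protein of hyaluronan breakdown, from 0.0430 to 1.04 mean FPKM (log2 change 3.02, adjusted p = 8.1e-06), and it was at 0.990 in IMQ + BZLF skin. Csgalnact1, which starts chondroitin chains, rose (1.94 to 5.41 mean FPKM, log2 change 1.50, adjusted p = 6.5e-04), as did the hyaluronan synthase gene Has3 (1.80, adjusted p = 0.0173) and the hyaluronan receptor gene Cd44 (1.30, adjusted p = 8.8e-04). Cd44 fell in IMQ + BZLF against IMQ + NS skin, from 44.7 to 28.0 mean FPKM (log2 change -0.67, adjusted p = 0.00354), and Has1 rose (1.13, adjusted p = 0.0353) after a fall in IMQ + NS against control (1.06 to 0.224 mean FPKM, log2 change -1.77, adjusted p = 0.00241). Centred on fibroblast markers, 22 of the 27 were higher and 1 was lower against control.

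Of 20 tested genes of matrix proteases and their inhibitors, 10 fell and 3 rose in IMQ + NS against control. Over all genes 27.1% fell and 29.0% rose. The falls in the list included Ctsk, for the collagen- and elastin-degrading cathepsin K (926 to 173 mean FPKM, log2 change -2.36, adjusted p = 1.5e-04), Timp2 (533 to 143, -1.85) and Mmp3 (145 to 50.9, -1.50), while the inhibitor gene Timp1 (1.22) and Adamts20 (1.90) rose. From IMQ + NS to IMQ + BZLF skin, where 1.28% of all genes rose and 5.17% fell, 0 of the list rose and 3 fell. They were Mmp9, for a gelatinase (6.28 to 1.13 mean FPKM, log2 change -2.25, adjusted p = 0.00952), Ctss, for cathepsin S (107 to 53.3, -1.02, adjusted p = 0.0145) and Elane, for neutrophil elastase (0.701 to 0.194, -1.38, adjusted p = 0.0434). Ctsk (0.14), Mmp12 (0.75) and Mmp2 (-0.05) did not pass. Neutrophil markers (Ly6g, Csf3r, Cxcr2, Mmp8, Retnlg, S100a8 and S100a9) fell in 7 of 7 in the same comparison. They went from 3128 to 9892 summed FPKM with IMQ + NS to 62.7 to 83.6 with IMQ + BZLF. In control skin the neutrophil sum was 31.9 to 50.6 FPKM. Macrophage markers fell in 2 of 8 from IMQ + NS to IMQ + BZLF skin, with sums of 631 to 891 and 416 to 620 FPKM. The sums are not split by gene here, and the part of either marker list in the 3 falls was not tested. Mmp9 averaged 5.44 ± 1.48 FPKM in control skin and 6.28 ± 3.57 in IMQ + NS skin (SD). It was 4.47-fold lower in IMQ + BZLF than in control skin (limma, adjusted p = 2.6e-04). Centred on fibroblast markers, the list had 13 higher and 2 lower genes against control and 4 lower in IMQ + BZLF against IMQ + NS. Genes of the TGF-beta, sugar chain and protease lists that are small in change or low in level (Tgfb1, Itgb6, Has1, Cemip and Elane) were named after values had been seen, as were Srgn, Thbs1, Thbs3, Mmp12 and Mmp2.

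Dermal fibroblasts are the main known source of these matrix proteins. Of 10 fibroblast markers, 9 were lower in IMQ + NS than in control skin (median log2 change -1.19), 0 of 10 differed between IMQ + BZLF and IMQ + NS, and 7 were lower in IMQ + BZLF than in control skin. Over all genes, 27.1% were lower in IMQ + NS and 29.2% in IMQ + BZLF than in control skin. Pdgfra was the marker not called in the comparison with IMQ + NS (-0.06, adjusted p = 0.683). The 10 markers summed to 484 to 731 FPKM in control samples, 197 to 252 in IMQ + NS samples and 163 to 273 in IMQ + BZLF samples, and no marker was at 0 in a group. In bulk skin and in a relative unit such as FPKM, fewer fibroblasts, less RNA per fibroblast and more RNA from other cells cannot be told apart. The part of these markers in the changes of the members was not tested.

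Fibrillar and beaded collagen genes moved in the same direction, with 5 of 8 lower in IMQ + NS than in control skin (27.1% of all genes). Their median log2 change was -0.73, and their summed levels were 11956 to 16576, 3263 to 4461 and 4052 to 7596 FPKM in the 3 groups. Most of each sum came from Col1a1, Col1a2 and Col3a1, at 4548, 5592 and 3839 mean FPKM in control skin, so the sums say little of the other genes. The change of Col1a1 was larger than the list median. Col1a1 went from 4548 in control to 1056 in IMQ + NS (log2 change -2.10, adjusted p = 3.1e-05) and was at 1886 mean FPKM in IMQ + BZLF, with a log2 difference of 0.81 from IMQ + NS (adjusted p = 0.0606).

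When the values of each sample were centred on the mean of the 10 fibroblast markers, the median of all 15288 genes moved to 1.19 in IMQ + NS against control and to 0.96 in IMQ + BZLF against control. The markers did not move together, as 4 of them were called higher and 3 lower after centring in both comparisons. On that scale 6 members were higher than in control skin in the first of these comparisons and 3 were lower, which were Sparc (-1.35), Dcn (-0.67) and Lum (-0.41). Eln (1.33), Fbln5 (1.51) and Fbn1 (1.04) passed as higher, and they stood at 0.14, 0.32 and -0.16 from the median of all genes. Tnc stood 4.32 above that median and Sparc at -2.55 from it. Between the IMQ groups the median moved to -0.19, and Tnc was the only member called (-1.45, adjusted p = 2.2e-04).

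**Figure D5:**
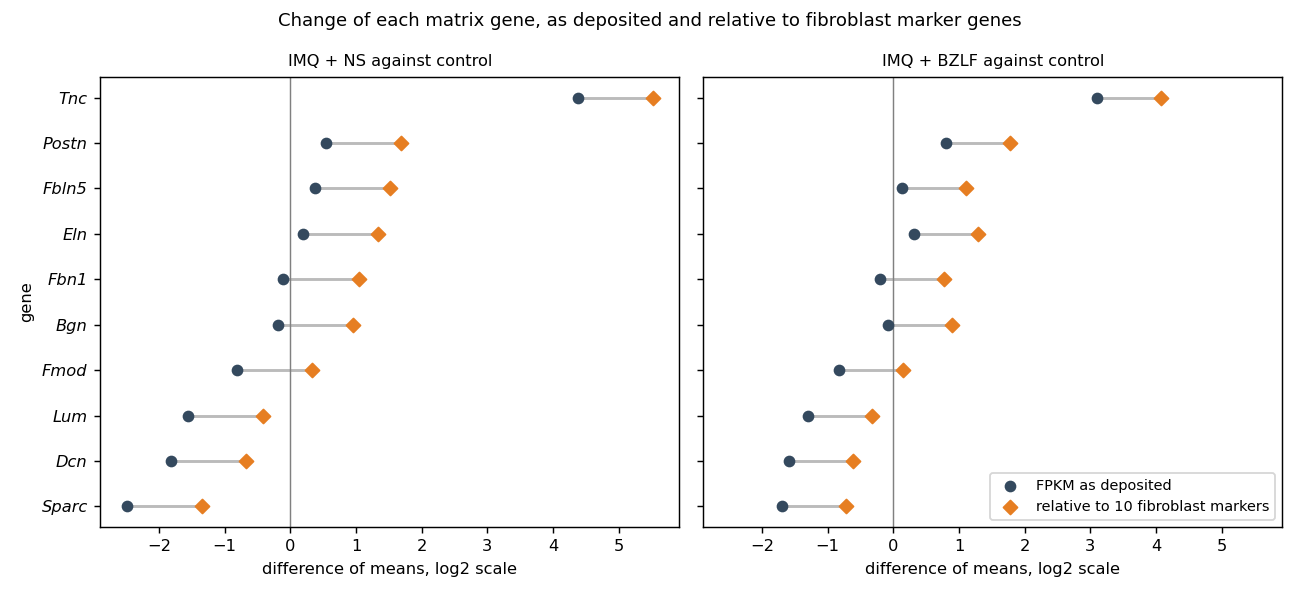
Difference of the group means on the log2 scale (horizontal axis) for each gene, with FPKM as deposited (circles) and after centring each sample on 10 fibroblast markers (diamonds), for both IMQ groups against control. All points move to the right with the median of all genes, those of Fbn1, Bgn and Fmod cross 0 (1.04, 0.96 and 0.33 on the left), and those of Sparc, Dcn and Lum stay to the left of it.

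Markers of other parts of the skin moved with the same comparisons. In IMQ + NS against control 29.0% of all genes rose and 27.1% fell, and from IMQ + NS to IMQ + BZLF 1.28% rose and 5.17% fell. Hair shaft keratins rose in 7 of 7 cases, from at most 283 summed FPKM in controls to between 4680 and 6867 with IMQ + NS and between 6275 and 9491 with IMQ + BZLF. Skeletal muscle markers fell in 8 of 8 (4125 to 10272, 714 to 1752 and 1292 to 1777 summed FPKM), adipocyte markers in 6 of 7 (2263 to 4528, 1304 to 1900 and 1751 to 1990), endothelial markers in 6 of 8, macrophage markers in 7 of 8 and smooth muscle and pericyte markers in 4 of 8, with 3 of those 8 higher. Neutrophil markers rose in 7 of 7 and fell in 7 of 7 between the IMQ groups, at 31.9 to 50.6, 3128 to 9892 and 62.7 to 83.6 summed FPKM. Basal keratinocyte markers rose in 5 of 6 and fell in 5 of 6 (1023 to 1395, 3134 to 5289 and 1443 to 2112), and both lists had the order of groups that Tnc had. Of 6 dermal papilla markers tested, 2 rose and 2 fell. None of the seminal vesicle or pancreas genes was called, and the pancreas sum varied widely within each group. The part of these lists in the members' values was not tested.

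The order of the members by mean FPKM in control skin was Sparc, Dcn, Lum, Bgn, Postn, Eln, Fbn1, Fbln5, Fmod and Tnc. Only Eln and Fbn1 overlapped among neighbors in that order, and Eln was above Fbn1 within each of the 4 controls. In IMQ + NS skin Postn (297 ± 20.2) and Bgn (279 ± 16.1) stood above Lum (213 ± 20.5), with Postn and Bgn overlapping each other, and Tnc rose from last place to overlap with Fbn1. Within the 4 IMQ + NS samples, Postn was above Bgn in 3 and Fbn1 above Tnc in 2. In IMQ + BZLF skin the order was Sparc, Dcn, Postn, Bgn, Lum, Eln, Fbn1, Fbln5, Tnc and Fmod, with 4 overlapping pairs of neighbors. Within each of the 4 IMQ + BZLF samples, Dcn was above Postn, Postn above Bgn and Bgn above Lum, while Fbln5 was above Tnc in 3.

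Pairs of members varied together within groups to very different degrees, both within and across families. After group means were removed, the Pearson r of log2(FPKM + 0.1) over the 12 samples was 0.92 for Dcn and Lum, 0.76 for Dcn and Sparc, 0.79 for Eln and Fbln5, 0.74 for Eln and Fbn1, 0.81 for Bgn and Postn, 0.78 for Fbln5 and Postn and 0.77 for Lum and Sparc. It was 0.29 for Dcn and Fmod, -0.10 for Fbn1 and Dcn and -0.52 for Tnc and Sparc. These are descriptions over samples that share a library, a depth scaling and a tissue makeup for all genes at once. In the IMQ + BZLF group, replicate 1 had the lowest value for 9 of the 10 members, and it also had the lowest fibroblast sum (163 against 264 to 273 FPKM) and collagen sum (4052 against 6679 to 7596).

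Among the 12657 genes whose mean FPKM reached 1, those with the pattern over the 12 samples most like Eln were Hspg2 (r = 0.895), D830031N03Rik (0.877), Ccn3 (0.859), 1600012H06Rik (0.845) and Dpysl3 (0.844). After group means were removed the r of Eln was 0.92 with Hspg2, which encodes the basement membrane proteoglycan perlecan, and 0.98 with Ccn3. For Dcn they were Reln and Ly6a (both 0.994) and Ltbp1, Rspo1 and Laptm4a (all 0.993), and for Tnc they were Furin and Enah (both 0.993), Zmiz1 (0.992), Col12a1 (0.990) and Arhgef1 (0.989). With group means removed the r of these genes ranged from 0.93 to 0.96 for Dcn and from 0.92 to 0.97 for Tnc.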

How the data were processed

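The authors deposited 1 table of FPKM values per gene and sample, not on a log scale and not pooled. The methods of the study name Bowtie2 and eXpress for these values, whereas the submitters' processing notes name fastp, HISAT2, HTSeq, R 3.2.0 and the build mm10, and which pipeline made the table is not given in the sources used here. Extraction and library kits also differ between the methods and the labels. FPKM of low genes were whole multiples of a smallest step (within 0.05) for 39.6% of 10612 values, so counts were not rebuilt and count models were not used.

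Genes whose FPKM averaged 0.1 or more across all 12 samples were tested on log2(FPKM + 0.1), which understates changes of low genes, with limma 3.58.1 in R 4.3.3 (moderated variances with a trend) on the 8 samples of each pair of groups. P-values were adjusted over all 15288 genes by the Benjamini-Hochberg method, and a gene was called at an adjusted p below 0.05. Exact permutation tests used SciPy 1.17.1. The method was tested on simulated data. Gene positions are from GENCODE M21 (GRCm38) and promoters from RefSeq. Samples were grouped by their titles.

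The members, the 6 related lists and the marker lists were chosen with earlier results of these data known. All members were named, with up to 5 related genes per list and comparison past the call, a log2 change over 1 in size and a mean FPKM of at least 1, and others as marked. Podnl1, Agrn, Gpc1, Spp1 and Ccn4 were outside that rule and were named after values had been seen. The precision rests on 4 samples a group. Alternatives were other constants (0.01, 1), filters, scalings, variance models, a replicate block, a limit on the fold and leaving out each sample.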

Additional observations from a re-analysis of the deposited data

Results flagged for a closer look

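A single sample lay far from the other 3 of its group in 4 of 30 groups of 4 samples (10 genes in 3 groups), by a gap that exceeded Dixon's critical share of the group's range. Chance alone flags about 1 in 20 such groups. Tnc was at 5.15 FPKM in control replicate 2, against 0.558 to 0.913 FPKM in the other controls. Postn was at 247 FPKM in IMQ + BZLF replicate 1, against 390 to 414 FPKM in the other 3 samples, and this sample had the lowest value of its group for 9 of the 10 members. Fbln5 was at 16.2 FPKM in IMQ + NS replicate 1, where the other 3 samples were at 14.3 FPKM each. Fbn1 was at 31.0 FPKM in IMQ + NS replicate 3, against 29.5 to 29.6 FPKM in the others, so that in these 2 cases the gap stood out because the other samples were nearly equal.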

How the results depend on the processing

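Of 600 recomputed log2 differences of the 10 members, 561 kept their direction and their side of the threshold, and of 23 that changed sign, 18 had an adjusted p of 0.05 or more both ways. Centring on fibroblast markers, which moved the median of all genes from 0.05 to 1.19 in IMQ + NS against control, turned Fbn1 to 1.04, Bgn to 0.96 and Fmod to 0.33 there, Eln to -0.04 and Bgn to -0.06 in IMQ + BZLF against IMQ + NS, and Fbn1 to 0.77, Bgn to 0.90 and Fmod to 0.15 in IMQ + BZLF against control. In IMQ + BZLF against IMQ + NS, Fmod turned to 0.04 under median ratio scaling and quantile normalization and to 0.02 with equal sums. Leaving out 1 replicate gave log2 differences of -0.40 to 0.16 for Fbn1 in IMQ + NS against control, -0.13 to 0.14 for Fmod, -0.24 to 0.06 for Fbn1 and -0.06 to 0.37 for Eln in IMQ + BZLF against IMQ + NS, -0.50 to 0.06 for Fbn1, -0.17 to 0.08 for Bgn and -0.07 to 0.32 for Fbln5 in IMQ + BZLF against control. On the same scale centred on fibroblast markers, members called were 6 higher in IMQ + NS against control, and 5 higher and 2 lower in IMQ + BZLF against control. Related genes were 98 higher and 14 lower, 3 higher and 12 lower, and 83 higher and 10 lower in the 3 comparisons, against 24 and 66, 5 and 7, and 19 and 59 as reported. A log2 limit of 1 left 1 higher member against control in both IMQ groups, 37 lower related genes in IMQ + NS against control, 1 higher and 3 lower in IMQ + BZLF against IMQ + NS, and 11 higher and 27 lower in IMQ + BZLF against control.

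In IMQ + BZLF against IMQ + NS, 1 member (Sparc) was higher under median ratio scaling, and with all 12 samples in one fit 1 was higher and 0 lower, the lost one being Tnc (adjusted p = 0.247). Related genes there were 2 higher and 3 lower with no filter on low values, 3 and 4 with all 12 samples in one fit, and 3 and 3 without a variance trend. Leaving out 1 replicate gave 0 to 3 higher members there, 3 of them without IMQ + BZLF replicate 1, and for related genes 0 to 16 higher (16 without that replicate) and 3 to 8 lower. Against control, related genes that were higher ranged from 21 to 42 in IMQ + NS and from 13 to 37 in IMQ + BZLF, the largest counts being those without control replicate 2. The share of calls over all genes that were higher was 51.7% in IMQ + NS against control, and 38.7% with equal sums.

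With group means removed, samples with the same number had r from -0.15 to 0.26, so the numbers were not taken as pairs. Numbers 3 and 4 still found their best match in the same number in every comparison. Same-numbered control and IMQ + BZLF samples also had like pancreas sums, at 192 and 183, 207 and 206, 215 and 199, and 17.3 and 17.3 FPKM. Seminal vesicle transcripts were shared by number 2. Whether same-numbered samples shared handling was not tested. With the replicate number as a block, the counts of members called did not change, and related genes higher in IMQ + BZLF than in IMQ + NS numbered 2. The cause of these changes was not tested. Depth limits cannot be given without counts.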
